A study of Homo sapiens with 2 samples.

Results

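Genes of nucleotide excision repair, base excision repair and mismatch repair, together with the alkyltransferase gene MGMT, were followed on 2 arrays of the human hepatocellular carcinoma line PLC/PRF/5. The list held 37 genes, and a gene was followed through every probe set that the array annotation pairs with its symbol alone. This gave 75 probe sets for 35 genes, of 19775 genes on the array, while PMS2 and NEIL1 had no such probe set and were not analysed here. Chemoresistant hepatospheres, which are spheroids of the line exposed to cisplatin and doxorubicin together, gave the RNA of one array. Differentiated cells, obtained by giving spheroids FBS and letting them attach, gave that of the other. Drug exposure, spheroid growth, serum and attachment therefore cannot be told apart, and it is not stated whether the spheroids used for differentiation had met the drugs. With 1 array per group there is no replicate, no error and no test, so every fold below describes these 2 arrays.

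The 3 pathways remove different lesions. Nucleotide excision repair cuts out a short oligonucleotide around bulky damage, including the intrastrand crosslinks that cisplatin leaves between neighbouring purines. Base excision repair starts with a glycosylase that removes a single damaged base, such as uracil or an oxidised guanine, and ends with gap filling and ligation. Mismatch repair corrects replication errors, and its MutS proteins also bind platinum adducts, which is why it has been studied in drug response. MGMT works alone by taking an alkyl group from guanine onto itself.

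Levels are linear MAS5 signals, and differences are log2 signals of hepatospheres minus differentiated cells. A floor of 84.1 signal units marked low signals, and 63 of the 75 probe sets reached it on at least 1 array. Each gene was represented by its brightest probe set, and with this choice all 35 genes with a probe set lay above the floor on both arrays, so none of their folds is a bound. Median signals over all probe sets were 70.6 and 84.1 in differentiated cells and hepatospheres. The ACTB 3' to 5' signal ratio, a measure of RNA integrity, was 1.48 and 2.64, and that of GAPDH was 0.987 and 1.04. The part of these ratios in the results was not tested. All 8 liver markers with a probe set reached the floor on both arrays, but they went different ways, with 3 at least 2-fold higher, 2 at least 2-fold lower and 3 within 2-fold. ALB read 10276 and 27887 and TTR 243 and 1364, whereas the fetal liver genes AFP (2451 and 433) and GPC3 (3103 and 375) were lower. The fibroblast markers LUM (1.14 and 2677) and COL3A1 (42.6 and 679) were above the floor in hepatospheres only, 4 of 6 fibroblast markers reached the floor somewhere, and the summed signal of the list was 427 in differentiated cells and 4067 in hepatospheres. COL1A2 and PDGFRB stayed below the floor on both arrays. Of the endothelial and leukocyte markers only PECAM1 and LYZ reached the floor, while CDH5, VWF, KDR, PTPRC, CD3E and CD14 did not. The part of these markers in the repair genes was not tested.

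Of the 35 repair genes, 6 were at least 2-fold lower in hepatospheres, 0 at least 2-fold higher and 29 within 2-fold. The 6 made up 17.1% of the members, where 8.83% of all 12766 measured genes were at least 2-fold lower and 12.5% at least 2-fold higher, 21.4% in either direction. They were NEIL3, UNG, TDG and APEX1 of base excision repair, MSH6 of mismatch repair and DDB2 of nucleotide excision repair. The largest differences above 0 were those of the incision genes ERCC1 and ERCC4, which were just under 2-fold. These directions are relative to the bulk of genes, because scaling the arrays to their poly(A) control RNAs moved the median of all genes from 0.05 to -0.93 and placed all 35 members below 0. In bulk RNA such as this, fewer cells that express a gene and less of its RNA in each cell cannot be told apart.

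**Figure D1:**
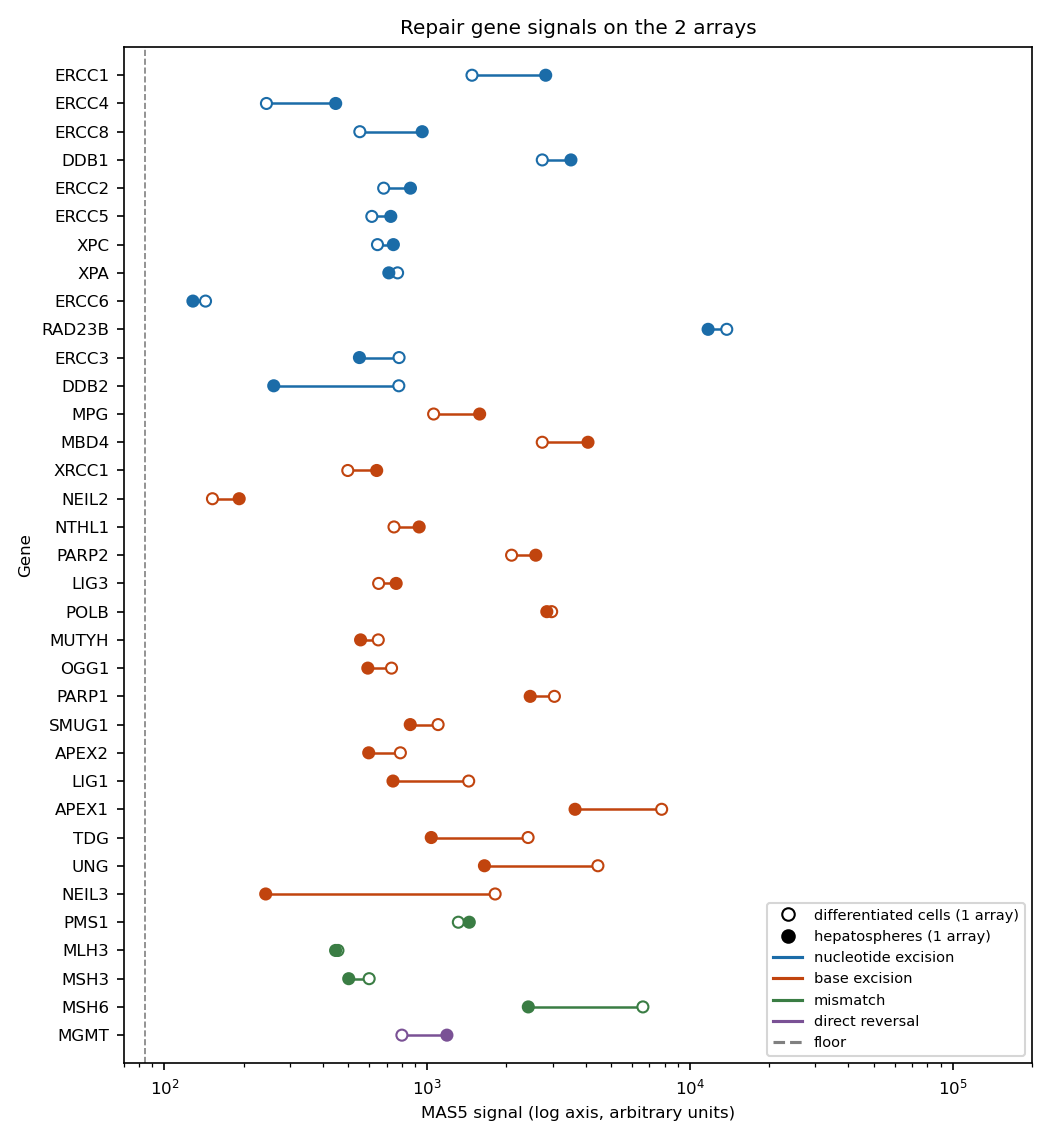
MAS5 signal (log axis) of the brightest probe set of each of the 35 genes, with open circles for differentiated cells, filled circles for hepatospheres, 1 array each, and colours for the pathways; the dashed line is the floor of 84.1. The longest lines are those of NEIL3, from 1812 to 243, and DDB2, from 779 to 260.4, both with the hepatosphere signal to the left.

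The promoters of the 6 lower genes are shown because these genes sit in 3 different pathways, together with that of LIG1, which stood just inside 2-fold. Each sequence covers the 250 bases before a RefSeq start site in build GRCh38.p14, 5′ to 3′ on the strand of the gene. Where a gene has several start sites, the one with most matches is given. Capitals mark matches, on either strand, to an E2F element (TTTCCCGC, TTTGCCGC, TTTCGCGC or TTTGGCGC), to a CCAAT box (CCAAT) or to a cell cycle homology region (TTTGAA). A match on the reverse strand shows as its reverse complement, as in the TDG and MSH6 stretches for the CCAAT box. The stretches are chr4:177309624-177309873 (plus strand) for NEIL3, chr12:109097922-109098171 (plus strand) for UNG, chr12:103965622-103965871 (plus strand) for TDG, chr14:20454976-20455225 (plus strand) for APEX1, chr2:47782895-47783144 (plus strand) for MSH6, chr11:47214204-47214453 (plus strand) for DDB2 and chr19:48170345-48170594 (minus strand) for LIG1.
NEIL3: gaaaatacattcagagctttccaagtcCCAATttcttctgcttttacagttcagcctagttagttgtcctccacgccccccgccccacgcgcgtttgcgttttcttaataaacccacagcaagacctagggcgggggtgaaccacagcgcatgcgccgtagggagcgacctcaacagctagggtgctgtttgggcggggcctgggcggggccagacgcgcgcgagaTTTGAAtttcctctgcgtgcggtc
UNG: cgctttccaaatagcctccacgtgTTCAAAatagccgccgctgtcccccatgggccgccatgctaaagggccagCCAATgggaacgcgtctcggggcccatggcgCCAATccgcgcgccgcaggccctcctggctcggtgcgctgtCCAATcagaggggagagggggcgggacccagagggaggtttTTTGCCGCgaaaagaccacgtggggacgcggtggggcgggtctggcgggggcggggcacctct
TDG: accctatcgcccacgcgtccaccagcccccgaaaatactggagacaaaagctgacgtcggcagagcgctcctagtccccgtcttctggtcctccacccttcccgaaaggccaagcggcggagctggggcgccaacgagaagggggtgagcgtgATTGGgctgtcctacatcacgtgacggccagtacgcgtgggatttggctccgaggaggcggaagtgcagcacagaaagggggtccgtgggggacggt
APEX1: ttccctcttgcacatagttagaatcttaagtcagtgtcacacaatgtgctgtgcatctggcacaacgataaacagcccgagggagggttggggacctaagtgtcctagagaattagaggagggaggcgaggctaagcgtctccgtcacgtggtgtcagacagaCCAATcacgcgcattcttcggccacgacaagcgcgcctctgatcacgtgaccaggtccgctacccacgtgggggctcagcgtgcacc
MSH6: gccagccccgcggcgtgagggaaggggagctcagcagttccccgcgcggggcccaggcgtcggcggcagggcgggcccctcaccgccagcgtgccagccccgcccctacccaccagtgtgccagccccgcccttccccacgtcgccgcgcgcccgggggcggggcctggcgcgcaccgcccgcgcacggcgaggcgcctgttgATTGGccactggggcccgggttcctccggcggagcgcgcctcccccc
DDB2: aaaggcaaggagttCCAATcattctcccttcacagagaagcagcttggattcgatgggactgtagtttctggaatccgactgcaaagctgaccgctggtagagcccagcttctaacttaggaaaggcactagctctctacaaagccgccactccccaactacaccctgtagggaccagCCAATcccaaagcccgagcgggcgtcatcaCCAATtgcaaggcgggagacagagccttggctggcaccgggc
LIG1: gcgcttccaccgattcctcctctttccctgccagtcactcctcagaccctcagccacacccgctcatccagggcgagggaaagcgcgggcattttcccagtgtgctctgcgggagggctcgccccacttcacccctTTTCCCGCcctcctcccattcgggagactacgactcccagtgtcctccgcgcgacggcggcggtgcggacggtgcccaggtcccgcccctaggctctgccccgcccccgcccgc

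UNG had the densest set, with 1 E2F element, 3 CCAAT boxes and 1 cell cycle homology region in these 250 bases. DDB2 had 3 CCAAT boxes, NEIL3 1 CCAAT box and 1 cell cycle homology region, and TDG, APEX1 and MSH6 1 CCAAT box each. LIG1 held 1 E2F element and no CCAAT box. The search itself used whole windows of 300 bases, which run 50 bases past the start site, and 32 measured members had at least 1 window. An E2F element was present in 5 of the 32 (15.6%), which were UNG, LIG1, MSH6, MSH3 and XPC, against 6.47% of 10375 measured genes with a window and 3.31% of all 35116 windows. The MSH6 match lies 4 bases after its start site, outside the stretch shown, and the 2 matches of MSH3 overlap each other. The 5 genes had a median difference of -0.96, while XPC (0.20) and MSH3 (-0.26) stood near 0, and 4 of the 6 lower members had no E2F element in these windows. The 671 measured genes with the element had a median of -0.15, against 0.03 for those without, and 14.2% of them against 8.77% were at least 2-fold lower.

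A CCAAT box was found in 17 of the 32 members (53.1%), against 43.2% of measured genes and 34.6% of windows. All 6 lower genes were among these 17, and 0 of the 15 members without a CCAAT box were at least 2-fold lower. Over all measured genes the same split was small, since 9.94% of genes with a CCAAT box and 8.49% of those without were at least 2-fold lower. A cell cycle homology region was present in 7 members (21.9%, against 13.96% of measured genes and 15.2% of windows), of which DDB2, UNG and NEIL3 were at least 2-fold lower, as were 3 of the 25 members without it. Over all measured genes 13.1% with this region and 8.47% without were at least 2-fold lower. The GC box (GGGCGG), the binding letters of SP1, was present in 27 members (84.4%, against 74.9% of measured genes and 45.0% of windows). Genes with several start sites have several windows and so more room for a match. A match is a string of letters here and not a measured binding site.

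Nucleotide excision repair begins with damage recognition, and its 4 recognition genes split. DDB2, the subunit of the UV-damaged DNA-binding complex that finds lesions in chromatin, read 779 on the differentiated array and 260.4 on the hepatosphere array, 2.99-fold lower on its only probe set. DDB1, its partner and the adaptor of the CUL4 ubiquitin ligase, read 2739 and 3520.1, a difference of 0.36. The 2 subunits of this complex therefore went different ways, although DDB1 stayed well within 2-fold. XPC, the lesion sensor of the genome-wide branch, read 646 and 743, which is 0.20 and becomes -0.05 when the array medians are set equal. RAD23B, which stabilises XPC, read 13788 and 11710.2 on its brightest probe set (-0.24) and 3066 and 1057 on another (-1.54), so its size depended on the probe set.

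The transcription-coupled branch is started by ERCC6 and ERCC8, the Cockayne syndrome proteins CSB and CSA, which act where RNA polymerase II has stalled. ERCC6 was dim at 143 and 128 on its brightest probe set (-0.16). Its other probe set read 68.5, below the floor, and 125, a difference of at least 0.57, so ERCC6 showed no common direction. ERCC8 read 554 and 956 on its brightest probe set. Another ERCC8 probe set read 546 and 306, so that its probe sets spanned -0.84 to 0.79 and gave no direction. ERCC2 and ERCC3, the helicases of TFIIH that open the DNA around a lesion, read 682 and 863 (0.34) and 781 and 552 (-0.50). XPA, which checks the damaged strand, read 771 and 714, a difference of -0.11.

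The incision genes ERCC1 and ERCC4 had the largest differences above 0. ERCC1 read 1479 and 2822 on its brightest probe set, a 1.91-fold higher signal, and its 3 probe sets all lay above 0, between 0.70 and 1.05. ERCC4, which encodes XPF, the nuclease partner of ERCC1 that makes the cut on the 5′ side of the lesion, read 244 and 448, a 1.83-fold higher signal. Both subunits of this nuclease were thus higher by similar folds, just short of 2. ERCC5, which encodes XPG and cuts on the 3′ side, read 615 and 726 (0.24, or -0.01 with equal array medians). With loess scaling ERCC1 stood at 1.05 and would count as 2-fold higher. With equal array medians ERCC1 and ERCC4 stood at 0.68 and 0.62. The other ERCC4 probe set was below the floor on both arrays.

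Base excision repair held 4 of the 6 lower members, and also 18 of the 35 genes measured. NEIL3, a glycosylase for oxidised bases that also unhooks interstrand crosslinks in replicating cells, read 1812 on the differentiated array but 243 on the hepatosphere array, 7.46-fold lower. Only 19 of the 12766 measured genes stood lower than NEIL3 in this comparison. Its relative NEIL2 stood at 0.34, from a dim 152 to 192. UNG, the main enzyme that removes uracil from DNA, read 4459 and 1649.8, 2.70-fold lower on its only probe set. SMUG1, a second uracil glycosylase, read 1099 and 861, a difference of -0.35.

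TDG and MBD4 both remove thymine from G:T mispairs, and TDG also removes oxidised forms of methylcytosine. TDG read 2419 and 1035 on its brightest probe set, 2.34-fold lower, but 802 and 662 on the other (-0.28), and the mean over both was -0.75. MBD4 stood in the opposite direction, from 2738 to 4088 (0.58), with all 4 probe sets above 0 and the highest at 1.11. The 2 thymine glycosylases therefore stood apart in these arrays, by an amount that differed between probe sets. The glycosylases for oxidised guanine and its mispairs, OGG1 (731 and 594, -0.30) and MUTYH (651 and 557, -0.22), and NTHL1 (747 and 931, 0.32), which acts on oxidised pyrimidines, stayed within 2-fold. MPG, which removes alkylated purines, read 1057 and 1582, 1.497-fold higher. Over the 10 glycosylase genes measured, 3 (30%) were at least 2-fold lower and 0 higher, against 8.83% and 12.5% of all measured genes. Their median was -0.26.

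After the glycosylase, the abasic site is cut. APEX1, the main abasic site endonuclease, read 7795 and 3650.15, 2.14-fold lower on its only probe set. APEX2, a minor endonuclease, read 790 and 599 on its brightest probe set (-0.40) and stood at 0.31 on its other. The sensors of the resulting break stayed within 2-fold. PARP1 read 3045 and 2464 (-0.31), PARP2 2093 and 2587 (0.31, with 3 probe sets within 0.05 of each other) and the scaffold XRCC1 498 and 642 (0.37).

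Gap filling and ligation separated by ligase. POLB, the polymerase that fills the single missing base, read 2973 and 2849.7, a difference of -0.06 (0.04 with loess scaling). LIG3, the ligase that works with XRCC1, read 653 and 761 on its brightest probe set, and its 5 measured probe sets lay between -0.27 and 0.32. LIG1, which seals long patches and joins Okazaki fragments in replication, read 1437 and 740.4, 1.94-fold lower. It passed 2-fold when array medians were set equal, at -1.21.

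Mismatch repair was represented by 4 genes. MSH6, the MutS subunit that recognises single mismatches, read 6614 and 2423 on its brightest probe set, 2.73-fold lower, and 1680 and 445 on another (-1.92). Both measured probe sets placed it at least 2-fold lower, while 2 further ones were below the floor on both arrays. MSH3, the alternative subunit that recognises larger loops, read 601 and 502 (-0.26) and stood at 0.25 on its other probe set, so that it showed no common direction. MLH3, a MutL subunit with a role in meiosis, read 457 and 448 (-0.03). PMS1, another MutL homologue, read 1313 and 1444 on its brightest probe set (0.14) but 581 and 236 on a second (-1.30). MGMT, the direct reversal enzyme for alkylated guanine, read 800.5 and 1187, a 1.48-fold higher signal on its only probe set.

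Probe sets of one gene give the nearest thing to a technical spread on these arrays. The brightest pair differed by a median of 0.37 on the log2 scale over the 16 members with at least 2 measured probe sets, and by 0.37 over 6230 genes of the array. The pair went opposite ways for 6 of the 16 members (37.5%) and for 25.2% of all genes. Of the 6 lower genes, MSH6 was 2-fold lower on both of its measured probe sets, TDG on 1 of 2, and NEIL3, UNG, APEX1 and DDB2 had 1 probe set each. Counted by probe set, 9 of 63 (14.3%) were at least 2-fold lower, against 9.59% of all 23825 measured probe sets, and 2 were at least 2-fold higher, against 11.6%. When probe sets whose names mark shared sequence (_s_at, _x_at and _a_at) were left out, UNG, TDG and APEX1 had none left. RAD23B (-1.54), PMS1 (-1.30) and MBD4 (1.11) then passed 2-fold.

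**Figure D2:**
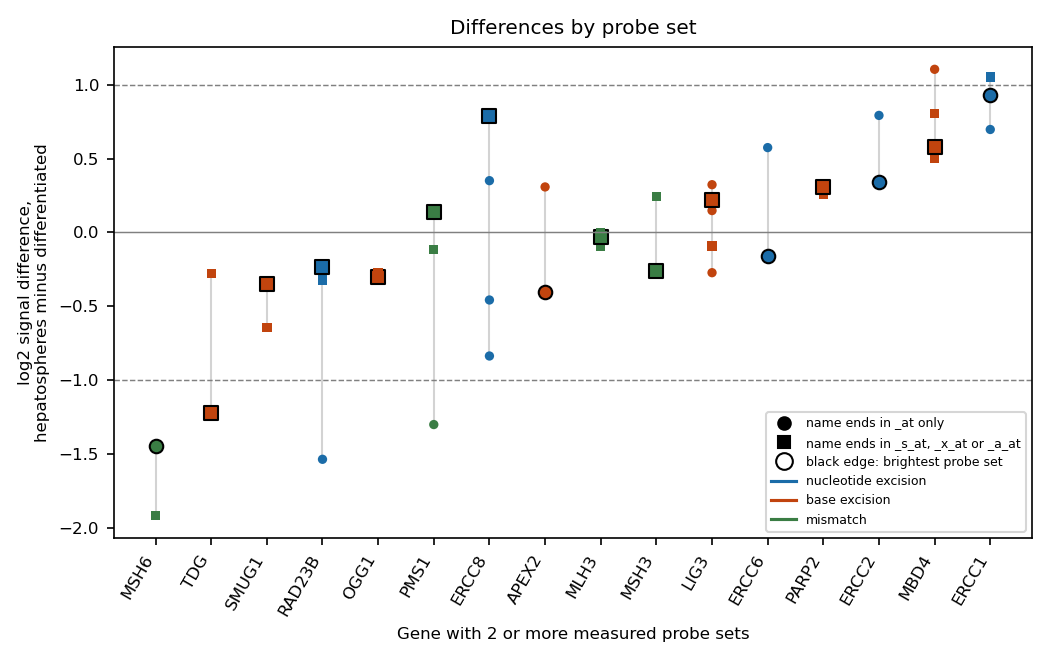
Log2 differences (vertical axis) of all measured probe sets of the 16 members with 2 or more. Circles are names without a mark for shared sequence, squares are names with one, and black edges mark the brightest. MSH6 lies below -1 on both probe sets, whereas ERCC8 runs from -0.84 to 0.79 and PMS1 from -1.30 to 0.14.

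The 3 pathways were set side by side by the median of their members, beside a median of 0.05 over all measured genes. Nucleotide excision repair stood at 0.22 over 12 genes, with 1 gene (8.33%) at least 2-fold lower, close to the background of 8.83%. Its median was -0.03 with equal array medians, where the median of all genes was -0.19. Base excision repair stood at -0.26 over 18 genes with 4 (22.2%) at least 2-fold lower, and mismatch repair at -0.14 over 4 genes with 1 lower. Without shared-sequence probe sets base excision repair stood at 0.32 over the 11 genes left. That step drops genes with no other probe set, among them the lower genes UNG, TDG and APEX1. The medians of -0.26 and 0.32 therefore cover different genes, and a part of the probe set type was not tested. The same step moved mismatch repair to -1.37, over only MSH6 and PMS1. No pathway had a member at least 2-fold higher with the brightest probe sets, where 12.5% of all genes were.

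**Figure D3:**
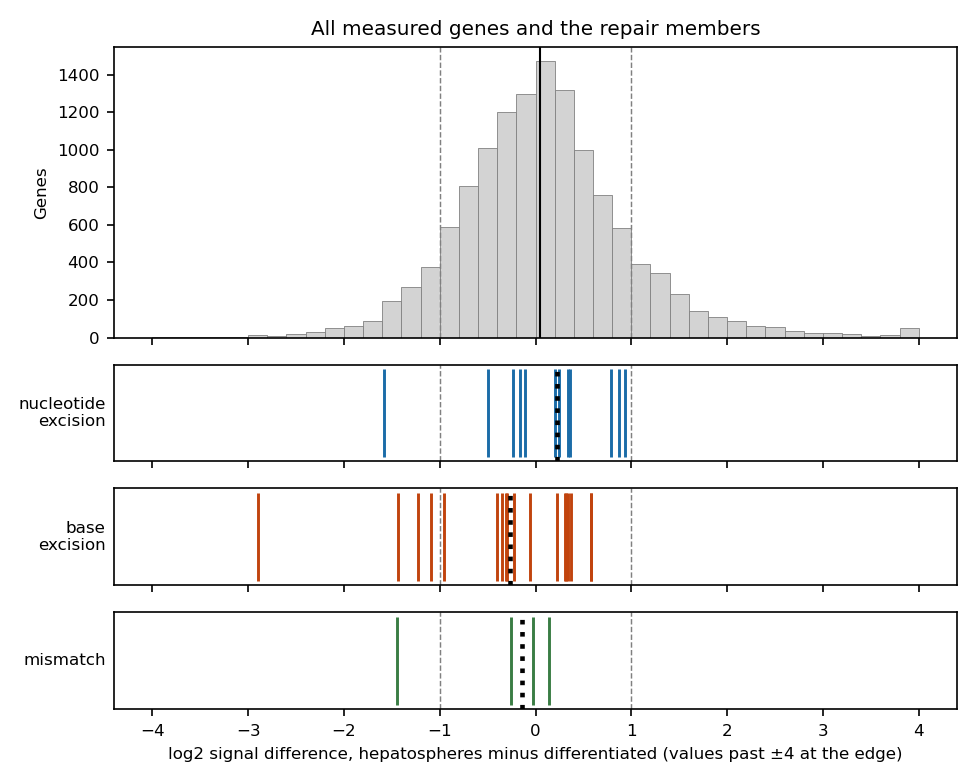
Log2 differences of all 12766 measured genes as a histogram (top, solid line at the median of 0.05) and of the members of each pathway as vertical lines, with a dotted line at each median and dashed lines at 2-fold. The members of nucleotide excision repair spread from -1.58 to 0.93, those of base excision repair from -2.90 to 0.58 and those of mismatch repair from -1.45 to 0.14.

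Partner genes of the same pathways were read beside the members. Of 14 measured partners of nucleotide excision repair, 2 (14.3%) stood at least 2-fold lower and 0 higher, against 8.83% and 12.5% of all measured genes. Their median was -0.10. GTF2H1, a core subunit of TFIIH, read 1966 and 515, 3.82-fold lower, and CUL4A, the cullin that works with DDB1 and DDB2, read 2674 and 1008, 2.65-fold lower. Their other probe sets differed in size, with ranges of -2.14 to -0.62 for GTF2H1 and -1.58 to -0.31 for CUL4A. CETN2, which binds XPC, stood at 0.53 and the nucleosome-binding protein HMGN1 at -0.53, with the other HMGN1 probe set at -1.17. Of 9 measured partners of base excision repair, 2 (22.2%) were lower and 0 higher (median -0.28), beside the same shares of all genes. TDP2, kept in this list although it removes trapped topoisomerase II from DNA ends and not damaged bases, read 17496 and 6352, 2.75-fold lower. POLL, a repair polymerase, was at least 2.79-fold lower, from 235 to below the floor at 32.5. PARP3 stood at 0.87 and the flap endonuclease FEN1 at -0.62, with the other FEN1 probe set at -1.12. Among 3 measured partners of mismatch repair the exonuclease EXO1 was 3.07-fold lower, from 633 to 206, and SETD2 and HMGB1 stood at -0.55 and -0.34. HMGB1, which was also counted among the partners of base excision repair, reached -1.38 on its lowest probe set.

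Nucleotide excision repair, mismatch repair and the long-patch route of base excision repair use polymerases, clamps and loaders that also copy the genome. Of these 17 genes, 6 (35.3%) were at least 2-fold lower and 0 higher, against 8.83% and 12.5% of all measured genes. Their median was -0.79. RFC5, a subunit of the clamp loader, read 3358 and 878, 3.82-fold lower, POLE2 1937 and 618, 3.13-fold lower, and RFC3 3927 and 1359, 2.89-fold lower. Probe sets ran from -2.07 to -0.49 for RFC5 and from -1.64 to -0.81 for RFC3, so both had a probe set within 2-fold. PCNA, the sliding clamp, read 9715 and 4138, 2.35-fold lower. The clamp loader subunit RFC1 (-0.52) and RPA3 (-0.16) stayed within 2-fold, and POLD4, a small subunit of polymerase delta, stood at 0.71. Replication genes outside repair were lower still. Of 20 measured, 14 (70%) stood at least 2-fold lower and 0 higher, and the median was -1.62. The lowest were PRIM1, POLA1 and CDT1 at -2.30, -2.26 and -2.00. Of 10 mitosis genes 6 (60%) were lower and 0 higher (median -1.45), with HMMR at -1.94 and CENPE at -1.83. The part of proliferation in the values of NEIL3, UNG, MSH6 or LIG1 was not tested.

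**Figure D4:**
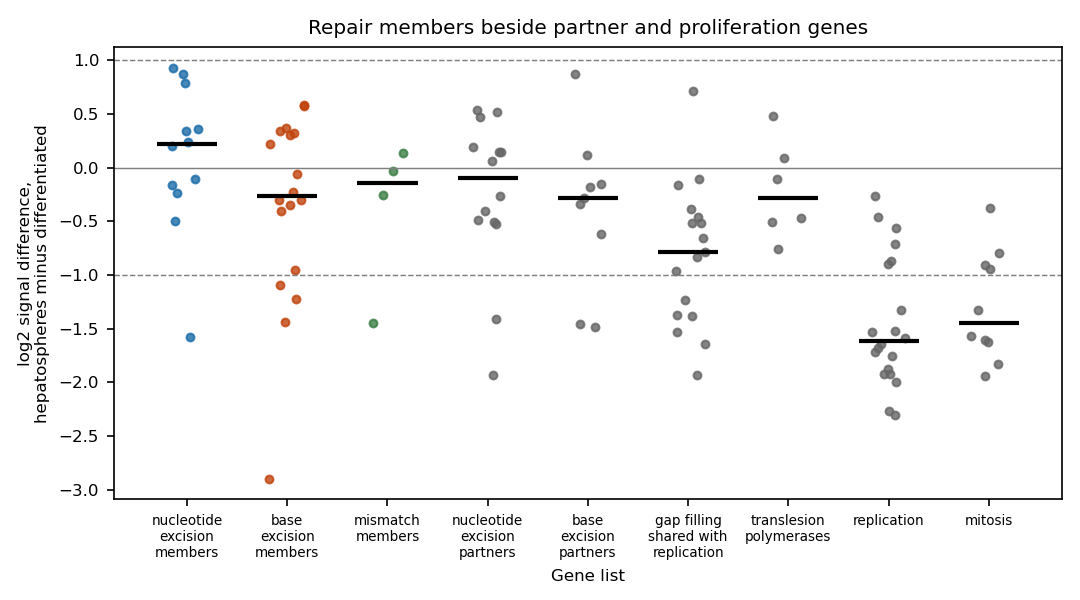
Log2 differences of each gene (points) and list medians (black bars) for the members of the 3 pathways, their partners, translesion polymerases, and replication and mitosis genes; dashed lines mark 2-fold. Medians go from 0.22 in nucleotide excision repair members through -0.79 in the shared gap filling genes to -1.62 in replication genes.

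Chromosomal surroundings were described by the median difference of up to 25 measured genes on each side, in the gene order of RefSeq. These medians ran from -0.44 to 0.51 over the members, and 5 of 35 lay outside the range from -0.38 to 0.36, the 5th and 95th percentiles of the same median taken around every measured gene. DDB2 on chromosome 11 and UNG on chromosome 12 had low surroundings, at -0.44 and -0.39. NEIL3 on chromosome 4 (-0.06) and MSH6 on chromosome 2 (-0.08) did not. On chromosome 19, ERCC1 (0.51), ERCC2 (0.50) and LIG1 (0.47) lay among genes that stood higher, and ERCC1 and ERCC2 are close enough to share most of these neighbours. Of the 50 genes around ERCC1, 15 were at least 2-fold higher and 3 at least 2-fold lower. Over all measured genes these shares were 12.5% and 8.83%. The difference of 0.93 for ERCC1 thus stood in a stretch with a raised median, whereas LIG1 at -0.96 stood against its own stretch. APEX1 and PARP2 lie near each other on chromosome 14, with surroundings of 0.17 for both, and stood at -1.09 and 0.31.

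**Figure D5:**
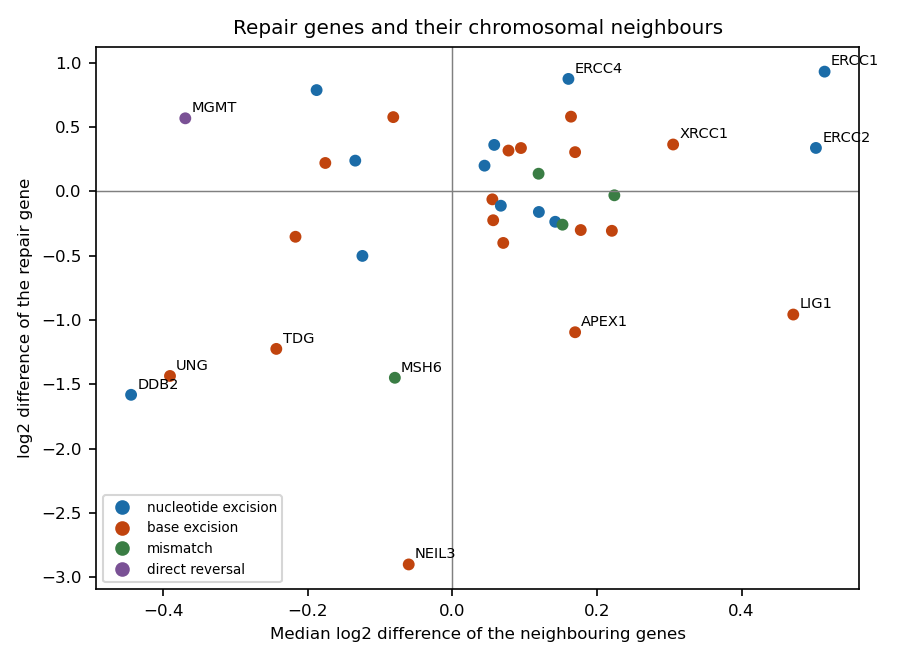
Log2 difference of each of the 35 members (vertical axis) against the median difference of its neighbouring genes (horizontal axis), coloured by pathway. ERCC1, ERCC2 and LIG1 share high surroundings near 0.5, while NEIL3 at -2.90 and MSH6 at -1.45 sit over surroundings of -0.06 and -0.08.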

How the data were processed

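Trizol-extracted total RNA carried a biotin label, per the labels' protocols, and was hybridised to 1 Affymetrix array of 54675 probe sets per group. The values deposited by the authors are intensity values, 1 linear MAS5 signal per probe set, with MAS5 named in the submitters' processing notes; the MAS5 version and target value are not stated in these sources. MAS5 subtracts background and scales arrays globally, and the 2% trimmed mean was 500.1 on both. Of the probe sets, 41091 pair with 1 symbol in GEO's platform annotation, 1801 with several and 11721 with none, and 62 are controls. Identifiers of all 35 members matched RefSeq (GRCh38.p14, also the source of gene order and promoters).

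The floor was the higher of the 2 arrays' 50th percentiles, a gene entered if its brightest probe set (highest mean log2 signal) reached it on 1 array, and lower signals were set to it. Members were described by role. The rule named members 2-fold apart, at the floor, with probe sets that disagree, or nearest 0, and of other lists up to 4 genes with the largest differences. Both signals are given for the remaining members too, beyond that rule, and further genes of other lists were named after their values were seen. Members and lists were chosen with earlier results of these data known. Recovery of planted differences was tried on simulated arrays, only for genes well above the floor and without poly(A) scaling. Member counts and pathway medians were not simulated. Python 3.11.15, numpy 2.4.6, pandas 2.3.3, statsmodels 0.14.6 and matplotlib 3.10.9 were used.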

Additional observations from a re-analysis of the deposited data

How the results depend on the processing

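No paired analysis was possible because each group has 1 array and the labels carry no replicate numbers; for the same reason no replicate could be left out. Settings tried were equal array medians, quantile normalization, loess on signal (span 0.3), scaling to 24 poly(A) control probe sets, a floor at the 40th or the 60th percentile, none at all, the floor added to the signal before log2, probe sets averaged per gene, and no shared-sequence probe sets. NEIL3, DDB2 and MSH6 were at least 2-fold lower under all 10, and UNG and APEX1 under all 9 that kept a probe set of theirs. For NEIL3, DDB2, UNG and APEX1, with 1 probe set each, moving or dropping the floor and averaging probe sets left the value unchanged. Those settings were therefore no check on these 4 genes, and only the scalings and the added floor moved their values. TDG was so under 8 of its 9 and stood at -0.75 with the mean over probe sets. The count of lower members stayed between 5 and 7 except with poly(A) scaling, though not always with the same genes. There the controls read 2.04-fold higher in hepatospheres, the median of all genes was -0.93, 46.5% of genes and 19 members were at least 2-fold lower, and nucleotide excision, base excision and mismatch repair stood at -0.81, -1.29 and -1.17. Relative to that median, 7 members were lower, namely the 6 and LIG1. With equal array medians the 3 pathways stood at -0.032, -0.51 and -0.40. With the mean over probe sets base excision repair stood at -0.14. Without shared-sequence probe sets 26 members were left. Of these, DDB2, MSH6, NEIL3, PMS1 and RAD23B (5) were lower and MBD4 (1) higher. The pathways then stood at 0.045, 0.32 and -1.37, over 12, 11 and 2 genes. With loess 1 member, ERCC1, was higher. Relative to the loess median of all genes (-0.05), 5 members were lower, APEX1 no longer among them, and ERCC1 was still higher. Having 1 array per group limits precision throughout.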

Other observations

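Enzymes close to these pathways were also read. Direct reversal has a second route beside MGMT, the oxidative demethylases ALKBH2 and ALKBH3. ALKBH2, which acts on double-stranded DNA, read 1494 on the differentiated array and 664 on the other, 2.25-fold lower, and ALKBH3 read 678 and 419, a difference of -0.69. Both stood in the opposite direction to MGMT at 0.57, on 1 probe set each. These are differences between 2 arrays without replicates.

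Translesion polymerases copy past lesions that repair has not removed. Of 6 measured, 0 were at least 2-fold apart, where 21.4% of all measured genes were, and their median was -0.29. REV3L, the catalytic subunit of polymerase zeta, read 1052 and 619.8 (-0.76), and its other probe set stood at 0.05. POLK stood at 0.48 on its brightest probe set and 0.51 on another. POLH, the polymerase that copies past cisplatin crosslinks, was dim at 261 and 183 (-0.51), and its probe sets ran from -0.51 to 0.62, so it showed no common direction. REV1 stood at -0.11.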
